A study of Mus musculus with 3 samples.

Results

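Among cells sorted from mouse thymus without CD4 or CD8, 1172 of 21879 cells (5.36%) carried Cpa3 and Il2ra transcripts together with no captured transcript of Rag1, Rag2 or Ptcra. They were chosen cell by cell from the raw counts of all 3 libraries: at least 1 unique molecular identifier (UMI, 1 captured RNA molecule) of Il2ra and 1 of Cpa3, and 0 UMIs of Rag1, Rag2, Ptcra, Mki67, Top2a, Cd34 and Trac, among cells with 500 to 5000 detected genes and at most 7% of counts from mitochondrial genes. They are called resting Cpa3+ Il2ra+ cells here, where resting means only that neither Mki67 nor Top2a was seen.

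The study profiled early T cell progenitors of C57BL/6 mice, aged 6 weeks, by droplet single-cell RNA sequencing, with 4 thymi pooled for each library. Run 1 held total double negative (DN) thymocytes with TCRγδ+ cells, run 2 held DN1 and DN2 cells without TCRγδ+ cells, and run 3 held DN1 plus DN2 cells, DN3 cells and TCRγδ+ cells that were sorted apart and mixed afterwards. No mutant or treated mice were used. Cells carrying CD4, CD8, B220, CD11b, CD11c, NK1.1 or TCRβ were removed during sorting. Each sort was made into 1 library. Which version of the kit made each is not given in the sources used here. The sort, the library, the kit and the run therefore cannot be told apart. The p-values measure only how evenly differences between populations of the same library repeat over these 3 libraries.

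T cell progenitors enter the thymus with stem cell and myeloid genes still active, and Notch signals from the thymic epithelium switch on the T cell program. At the DN2 stage they gain CD25, the interleukin 2 receptor alpha chain encoded by Il2ra, and the transcription factor Bcl11b then closes the other fates, dividing DN2a from DN2b. The recombinases Rag1 and Rag2 and the pre-T cell receptor chain Ptcra follow as the cells approach DN3. Cpa3, a mast cell carboxypeptidase, is also transcribed in early T cell progenitors.

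The 3 libraries held 5516, 8852 and 7511 cells after filtering, with a median of 5990, 4844 and 8507 UMIs per cell. Resting Cpa3+ Il2ra+ cells numbered 184 in run 1, 748 in run 2 and 240 in run 3. Their share was 3.34% in run 1 (95% exact binomial interval 2.88 to 3.84%), 8.45% in run 2 (7.88 to 9.05%) and 3.20% in run 3 (2.81 to 3.62%). The share was highest in the run sorted for DN1 and DN2 cells, and the intervals of the other two overlapped. These intervals cover counting error only, and the sort sets which cells could enter each share.

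**Figure D1:**
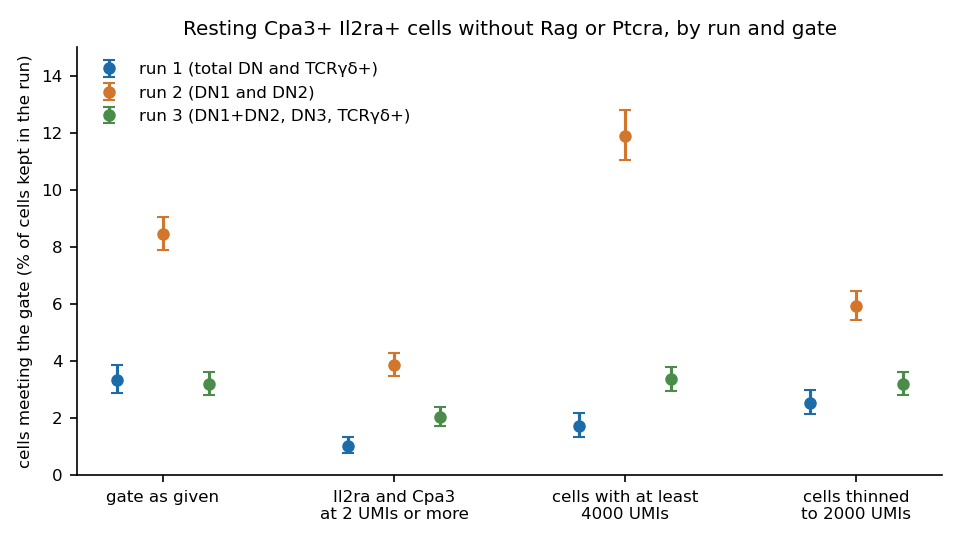
Share of filtered cells, in percent with 95% exact binomial intervals, taken by resting Cpa3+ Il2ra+ cells in each of the 3 runs, with the gate as given and with 3 other settings of it. The share is highest in run 2 at every setting, from 3.85% at 2 UMIs of Il2ra and Cpa3 or more to 11.9% among cells with at least 4000 UMIs.

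The genes of the gate describe the choice and were not tested. Il2ra stood at 524, 397 and 469 CPM (the usual scaling of a gene's UMIs by the total of its population and run) in runs 1, 2 and 3, and Cpa3 at 614, 717 and 513 CPM. Many cells were just inside the gate: 88, 304 and 54 of them had a single Il2ra UMI, and 76, 177 and 57 had a single Cpa3 UMI. Just outside it, 339, 281 and 178 cells met every clause except Cpa3, and 154, 454 and 193 met every clause except Il2ra. A further 92, 261 and 180 cells failed only through a UMI of Rag1, Rag2 or Ptcra. Because 0 UMIs can also come from shallow sampling, the gate depends on depth, and the resting Cpa3+ Il2ra+ cells had a median of 3546, 5476 and 9189 UMIs and 1553, 2028 and 2973 detected genes.

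The Cpa3 gene lies on chromosome 3 (chr3:20215620-20242181, minus strand, GRCm38). The 250 bases before its start (RefSeq, GRCm38.p6, chr3:20242182-20242431, minus strand, written 5′ to 3′ toward the start) are shown because Cpa3 is 1 of the 2 genes that the cells had to carry. Capitals mark matches, on either strand, to letters bound by factors of early T cells: the E-boxes CAGCTG and CAGGTG, the GATA form AGATAA, the RUNX core TGTGGT and the RBPJ core TGGGAA.
Cpa3: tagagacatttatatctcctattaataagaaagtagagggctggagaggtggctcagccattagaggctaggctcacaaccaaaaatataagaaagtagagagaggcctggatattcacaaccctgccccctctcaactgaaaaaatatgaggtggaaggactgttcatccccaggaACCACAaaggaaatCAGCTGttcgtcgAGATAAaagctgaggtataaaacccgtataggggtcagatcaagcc
The window held TGTGGT on the opposite strand 73 to 68 bases before the start, CAGCTG 59 to 54 bases before it and AGATAA 46 to 41 bases before it, without overlap. Of all 32851 mouse promoters of this length, 14% held TGTGGT, 13.0% CAGCTG, 9.99% AGATAA, 17.2% CAGGTG and 21.6% TGGGAA. A match is a description of the letters and not evidence of binding.

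The name DN2a, which denotes cells before commitment, was checked against marker genes outside the gate. Bcl11b, the factor that marks commitment, was at 649, 426 and 842 CPM in runs 1, 2 and 3. After every cell was thinned to 2000 UMIs, 70.7%, 57.2% and 78.8% of the resting Cpa3+ Il2ra+ cells still had a Bcl11b UMI. In otherwise alike cells with Rag1, Rag2 or Ptcra the thinned shares were 73.9%, 63.6% and 76.7%, and in Cd34+ cells of runs 2 and 3 they were 17.1% and 4.17%. The Bcl11b shares of resting Cpa3+ Il2ra+ cells thus lay near those of the Rag or Ptcra carrying cells and far above those of the Cd34+ cells. Kit, the stem cell factor receptor that DN2a cells carry in quantity, was at 26.9, 30.6 and 62.5 CPM. It was at 12.0, 29.9 and 41.4 CPM in the Rag or Ptcra carrying cells and at 5.28, 18.5 and 27.9 CPM in other cells. Cd44 was at 5.66, 12.3 and 24.2 CPM, against 4.8, 7.3 and 7.1 CPM and 2.74, 32.2 and 28.7 CPM in the same populations. In Cd34+ cells of runs 2 and 3 Kit was at 107 and 94.0 CPM and Cd44 at 73.1 and 106 CPM. Kit and Cd44 thus lay above the Rag or Ptcra carrying cells in each run and below the Cd34+ cells. The former differences did not pass the test given below. The Bcl11b values go against the name DN2a, so the cells are named by their gate alone.

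Free RNA gives UMIs in cells that do not transcribe a gene, and run 3 held 410 cells with UMIs of at least 3 B cell marker genes, of which the 407 with at least 2000 UMIs serve as a gauge of it. Among the 410 was 1 of the cells described. Doublets stayed in, so UMIs of T cell genes in the B cells may not be free RNA alone, which was not tested. Of these B cells 21.9% had an Il2ra UMI and 5.90% a Cpa3 UMI, or 11.6% and 2.95% after thinning, so a single UMI of a gate gene can be background. Thinned to 2000 UMIs, 11.3% of these B cells had a Bcl11b UMI and 0.737% a Kit UMI, against 78.8% and 10.8% of the resting Cpa3+ Il2ra+ cells of run 3. Cd3g, a chain of the CD3 complex, was seen in 19.2% of the B cells and 68.3% of the resting Cpa3+ Il2ra+ cells, and Cd3d, another chain, in 14.3% and 25.8%. All of these shares lay above the B cell background. The B cells had a median of 5173 UMIs before thinning, against 9189.

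Markers of other cell types were read in the summed counts of the resting Cpa3+ Il2ra+ cells. Of 10 mast cell and basophil markers, 9, 9 and 8 were at 0 in runs 1, 2 and 3, and the list summed to 1.41, 2.55 and 0.880 CPM. Defining mast cell genes were thus nearly absent. Natural killer markers summed to 983, 668 and 1021 CPM, led by the cytotoxic granule genes Gzma and Nkg7, while the receptor Ncr1 was at 0 in runs 1 and 2 and at 0.440 CPM in run 3. B cell markers summed to 62.2, 55.5 and 78.8 CPM, led by Cd79b, with Cd79a at 0 in runs 1 and 2 and at 13.6 CPM in run 3. Markers of γδ T cells summed to 4497, 4732 and 2151 CPM, from 6 genes. Its constant genes were Tcrg-C1 at 2460, 2983 and 1058 CPM, Tcrg-C4 at 1107, 925 and 429 CPM and Trdc at 841, 766 and 531 CPM, and after thinning 70.7%, 64.4% and 58.3% of the cells had a Trdc UMI. In the other cells of each run Trdc was at 431, 558 and 399 CPM, below the cells described in all 3 runs, and in the otherwise alike cells with Rag or Ptcra it was at 692, 788 and 426 CPM. The γδ factor Sox13 was at 26.9, 14.6 and 52.4 CPM against 14.2, 17.3 and 49.5 CPM in the other cells, Etv5 at 19.8, 10.7 and 29.5 CPM against 11.2, 17.1 and 25.1 CPM, and the kinase gene Blk at 42.4, 33.0 and 50.6 CPM against 20.4, 65.4 and 62.8 CPM. These 3 genes had no common direction across the runs, and in run 3 the 95% Poisson intervals of Sox13 (43.4 to 62.7 CPM against 47.9 to 51.1 CPM) and of Etv5 (22.8 to 37.4 CPM against 24.0 to 26.2 CPM) overlapped. In run 3, 12 cells held 56.3% of the Sox13 UMIs. Tcrg-C1 shares sequence with Tcrg-C2 and Tcrg-C4, so the counts of these genes are uncertain. The part of such cells in the results below was not tested, other than by leaving out the cells that carried Sox13, Etv5 or Blk, or B cell markers.

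Against all other cells of their own run, the resting Cpa3+ Il2ra+ cells were described without a test, since the gate chose them by expression. A gene was counted when it differed at least 2-fold in the same direction in all 3 runs. Of 6937 genes, 135 did so (1.95%), 13 of them higher (0.187%) and 122 lower (1.76%). The number of higher genes was 53 without run 2, 23 without run 3, 29 after thinning and 5 among cells with at least 4000 UMIs. The 13 higher genes included Plac8, a gene of lymphoid and myeloid progenitors, at 3311, 4397 and 2787 CPM against 726, 2027 and 914 CPM in the other cells. Nfe2, a transcription factor best known in megakaryocytes and erythroid cells, was at 65.0, 61.1 and 48.4 CPM against 7.04, 27.7 and 17.2 CPM. Neither gene overlapped between the cells described and the rest.

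The other higher genes were Bpifc (58.0, 44.8 and 24.2 CPM against 6.08, 18.4 and 5.51 CPM), Tcrg-C1, Emilin2, Dyrk4, Trim16, Sh2d5, Scin, 4930519L02Rik, Gm19590, Gm15518 and Gm5111. Among the lower genes were all 20 of a list of mitosis genes, led by Hmmr, Nusap1 and Spc25, and 4 of 20 S phase genes, which the clause on Mki67 and Top2a had a share in choosing. Cd2, an adhesion receptor of mature T and natural killer cells, was lower too, at 2.83, 3.25 and 8.80 CPM against 26.2, 53.0 and 57.1 CPM.

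The closest population was made of 533 cells that met every clause but carried a UMI of Rag1, Rag2 or Ptcra (92, 261 and 180 cells, median 3981, 5431 and 8563 UMIs). Setting the resting Cpa3+ Il2ra+ cells against them asks what else differs where Rag1, Rag2 or Ptcra is seen. Dntt, a recombination gene outside the gate, was at 1780, 1827 and 1484 CPM against 1613, 1934 and 1640 CPM in runs 1, 2 and 3. Counts were summed for each population and run, and all 5 populations, CD25+ cells with Rag or Ptcra but no Cpa3 being the fifth, were fitted together with edgeR's quasi-likelihood test and Benjamini-Hochberg adjustment, with the run as a block. Of 10106 genes tested, 122 passed an adjusted p of 0.05 (1.21%), 55 higher (0.544%) and 67 lower (0.663%) in the resting Cpa3+ Il2ra+ cells. The populations were split by counts of the same cells, so genes that vary with the gate genes follow in part from the choice. The count depended on the gate: with at least 2 UMIs of Il2ra and of Cpa3 it fell to 12, and without the run as a block it was 0. Of 27 called genes considered, 2 stayed called at 2 UMIs, 5 after thinning and 0 without the block. A call given below as passing without any 1 of the runs need not hold in those settings.

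Among the genes that were lower were 3 of the Notch pathway. Dtx1, a Notch target that encodes an E3 ligase, was at 14.1, 3.48 and 8.36 CPM in the resting Cpa3+ Il2ra+ cells of runs 1, 2 and 3 and at 48.1, 17.3 and 39.6 CPM in the Rag or Ptcra carrying cells. Every value of the first population lay below every value of the second, and the difference was −2.18 ± 0.26 on the log2 scale (SE, adjusted p = 1.08e-06). Notch3, a receptor that rises toward DN3, was at 29.7, 14.4 and 27.3 CPM against 52.9, 35.2 and 72.7 CPM. Its values did not overlap either, with a difference of −1.28 ± 0.20 (adjusted p = 0.000163). Notch1, the receptor that starts the T cell program, differed less, at 177, 111 and 244 CPM against 267, 145 and 380 CPM, and was lower in each run although the ranges overlapped (−0.55 ± 0.09, adjusted p = 0.00054). Without run 3 the adjusted p of Notch1 was 0.0517, while Dtx1 and Notch3 passed without any 1 of the runs. Of 12 Notch receptors and targets tested, these 3 were lower and none was higher, with a median of −0.28 beside −0.0027 over all genes.

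Cd3d was at 321, 147 and 219 CPM in the resting Cpa3+ Il2ra+ cells and at 981, 420 and 787 CPM in the Rag or Ptcra carrying cells. The populations did not overlap, and the difference was −1.69 ± 0.24 (adjusted p = 0.0222). The call was lost when run 3 was left out (adjusted p = 0.585). Its neighbour Cd3g was at 2190, 1548 and 1184 CPM against 2669, 2482 and 2157 CPM, a difference of −0.61 ± 0.27 that did not pass (adjusted p = 0.584). In CD25+ cells with Rag or Ptcra but without Cpa3, closer to DN3, Cd3d reached 1426, 1316 and 1734 CPM and Cd3g 2751, 3165 and 2471 CPM. Of 13 genes of the CD3 complex and of proximal receptor signalling, Cd3d was lower, Cd5 was higher (1.35 ± 0.35, adjusted p = 0.0358), and the median was −0.13. Without run 1 the adjusted p of Cd5 was 0.0781, and without run 3 it was 0.822.

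Cd3g and Cd3d lie head to head on chromosome 9, with 1355 bases between their starts. Cd3g is read from the minus strand (chr9:44969572-44980431) and Cd3d from the plus strand (chr9:44981786-44987339). The 250 bases before each start (RefSeq, GRCm38.p6, chr9:44980432-44980681 on the minus strand and chr9:44981536-44981785 on the plus strand) are shown because Cd3d was called lower and its neighbour Cd3g was not. Whether the differences of these genes were unlike each other was not tested. Capitals mark the same letters as for Cpa3.
Cd3g: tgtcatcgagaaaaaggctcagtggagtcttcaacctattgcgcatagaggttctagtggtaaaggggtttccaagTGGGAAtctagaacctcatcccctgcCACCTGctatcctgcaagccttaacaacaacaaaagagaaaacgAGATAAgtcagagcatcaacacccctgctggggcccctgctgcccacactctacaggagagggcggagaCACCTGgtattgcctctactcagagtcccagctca
Cd3d: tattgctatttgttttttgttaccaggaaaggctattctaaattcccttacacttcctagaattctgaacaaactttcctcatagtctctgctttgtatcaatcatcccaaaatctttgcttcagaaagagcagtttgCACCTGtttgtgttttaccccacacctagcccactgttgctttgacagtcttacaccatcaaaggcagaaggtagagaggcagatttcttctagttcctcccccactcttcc
The Cd3g window held the RBPJ core at 174 to 169, the GATA form at 104 to 99, and CAGGTG on the opposite strand at 148 to 143 and 35 to 30 bases before the start. The Cd3d window held CAGGTG alone, on the opposite strand at 112 to 107 bases before the start. None of these letters was found in the same windows of Dtx1, Notch1 and Notch3.

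Other genes were lower in the resting Cpa3+ Il2ra+ cells than in the Rag or Ptcra carrying cells. H19, a non-coding RNA of imprinted expression, was at 8.48, 5.11 and 7.92 CPM against 31.3, 10.6 and 82.8 CPM, with no overlap (−2.49 ± 0.28, adjusted p = 5.83e-06), but the call was lost without run 3 (adjusted p = 0.125). Pld4, an endolysosomal exonuclease, was at 35.3, 26.5 and 12.8 CPM against 108, 65.7 and 74.5 CPM (−1.77 ± 0.18, adjusted p = 1.08e-06), again without overlap. The checkpoint receptor Ctla4 (−1.39), the ectoenzyme Bst1 (−1.31), Arl5c (−1.38), Ccdc18 (−1.33) and Capn5 (−1.30) were lower as well, and Thy1, a surface protein of T cells, was lower by a small margin (−0.30 ± 0.07, adjusted p = 0.0246). Pld4, Bst1 and Ccdc18 passed without any 1 of the runs. The adjusted p of Arl5c was 0.33 without run 1, those of Ctla4 and Capn5 were 0.0517 and 0.172 without run 3, and that of Thy1 was 0.239, 0.0564 and 0.0605 without run 1, 2 and 3.

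Lyl1 had the largest difference among the named genes on the higher side, apart from Ifit3, which is given below. Lyl1, a basic helix-loop-helix factor of stem and early progenitor cells, was at 22.6, 41.3 and 29.9 CPM in the resting Cpa3+ Il2ra+ cells and at 4.81, 18.6 and 8.28 CPM in the Rag or Ptcra carrying cells. All 3 values were above all 3 of the other population (1.47 ± 0.25, adjusted p = 0.000407), and the call held without any 1 of the runs. The 4.81 CPM of run 1 lay below the 7.21 CPM that 3 UMIs would give in that population. Igfbp4, a secreted binding protein of insulin-like growth factors, was at 131, 172 and 105 CPM against 57.7, 89.6 and 31.9 CPM, also without overlap (1.21 ± 0.21, adjusted p = 0.0128), and lost its call without run 1 (adjusted p = 0.302). Nfe2 was higher in each run (0.69 ± 0.18, adjusted p = 0.0358), with an adjusted p of 0.258, 0.0993 and 0.0748 without run 1, 2 and 3. Of 14 stem and progenitor factors tested, Lyl1 and Nfe2 were higher and none was lower, with a median of 0.35.

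The integrin chain Itgb7 (1.01), which serves homing to the gut and thymus, the protease inhibitor Cst7 (0.91), Nrgn (1.14), Tes (0.97), Cyfip1 (1.03), Adgrg3 (0.99), Bpifc (0.93) and 4930519L02Rik (1.03) were higher too. Of these, Cst7 alone passed without any 1 of the runs. Without run 3 the adjusted p was 0.152 for Itgb7, 0.289 for Nrgn, 0.335 for Tes, 0.44 for Cyfip1, 0.158 for Bpifc and 0.0579 for 4930519L02Rik. Without run 1 it was 0.0781 for Itgb7, 0.223 for Cyfip1, 0.0503 for Adgrg3 and 0.114 for Bpifc, and without run 2 it was 0.0962 for Itgb7. The proteoglycan core Srgn, on the list of mast cell-type genes, was higher by 0.40 ± 0.08 (adjusted p = 0.00346), but not without run 1 (adjusted p = 0.0781). The interferon-induced gene Ifit3 was called with 0 UMIs in the Rag or Ptcra carrying cells of all runs, and taken over those cells it was at least 5.78-fold higher against a floor of 3 UMIs.

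No gene passed in 15 of the 22 lists, among them the 10 T lineage commitment factors (median −0.06), 20 S phase genes (0.14), 20 mitosis genes (−0.19), 8 recombination factors outside the gate (−0.24) and 12 cytokine and growth factor receptors (0.44). Bcl11b differed by −0.12 ± 0.09 (adjusted p = 0.817). Kit differed by 0.39 (adjusted p = 0.64) and Cd44 by 1.20 (adjusted p = 0.063).

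**Figure D2:**
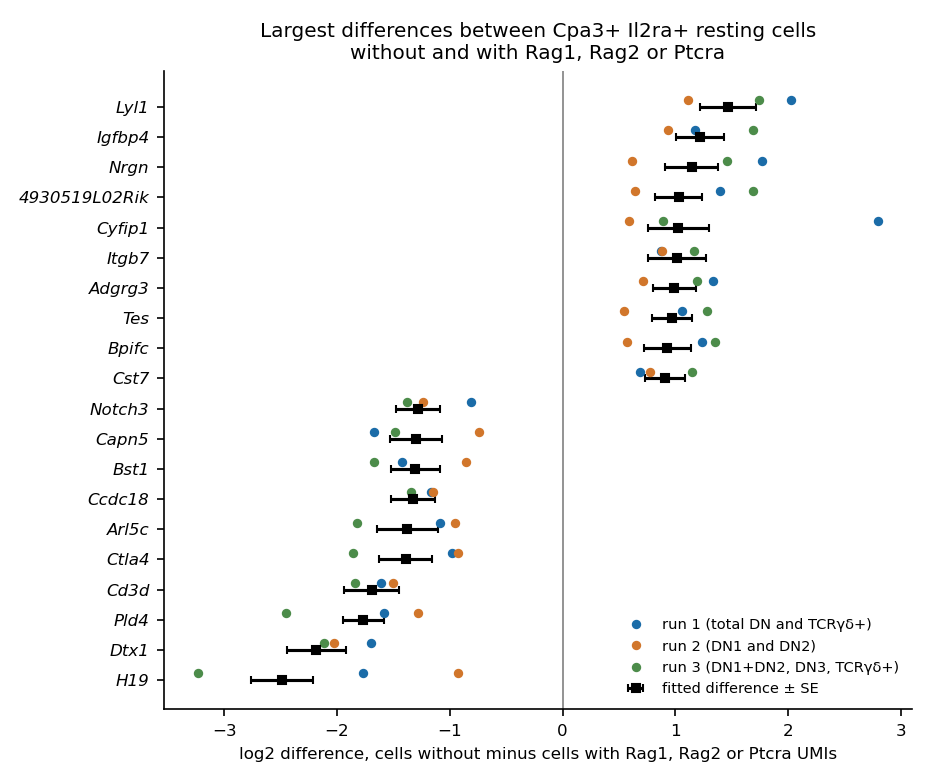
Difference between resting Cpa3+ Il2ra+ cells and otherwise alike cells with Rag1, Rag2 or Ptcra, log2 scale, for the 10 genes in each direction with the largest called differences among those at 20 CPM or more, with the standard error of the fit as a bar and the 3 runs as points. H19, Dtx1 and Pld4 lie farthest to the lower side of the plotted genes, and Lyl1 and Igfbp4 farthest to the higher side.

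Within the gate, cells were also split by Cpa3 after thinning to 2000 UMIs, as a description. Cpa3 is a gene of the gate, and a UMI of it can be background. The intervals given for this split cover counting error only. In run 2, Cd3g was at 1923, 1878 and 1279 CPM in cells with 0, 1 and at least 2 Cpa3 UMIs, and Cd3d at 191, 184 and 88.1 CPM. Cd3d was at 479, 327 and 216 CPM in run 1 and at 291, 207 and 226 CPM in run 3, with overlapping intervals in run 3 (218 to 381 CPM at 0 and up to 326 CPM at 2 or more). Plac8 went the other way in run 2, at 3741, 4213 and 5061 CPM. In run 3 Plac8 was at 2357, 2897 and 3202 CPM. In run 1 it was at 3260, 3519 and 3603 CPM, where the 95% Poisson intervals overlapped (2909 to 3642 CPM at 0 and 3266 to 3966 CPM at 2 or more Cpa3 UMIs). For Cd3g, run 3 declined (1495, 1109 and 855 CPM) and run 1 was at 2542, 2199 and 2207 CPM, with overlapping intervals (2233 to 2881 CPM at 0 and 1945 to 2494 CPM at 2 or more). Bcl11b showed no common order, with 781, 558 and 776 CPM in run 1, 421, 450 and 451 CPM in run 2 and 813, 943 and 1089 CPM in run 3.

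**Figure D3:**
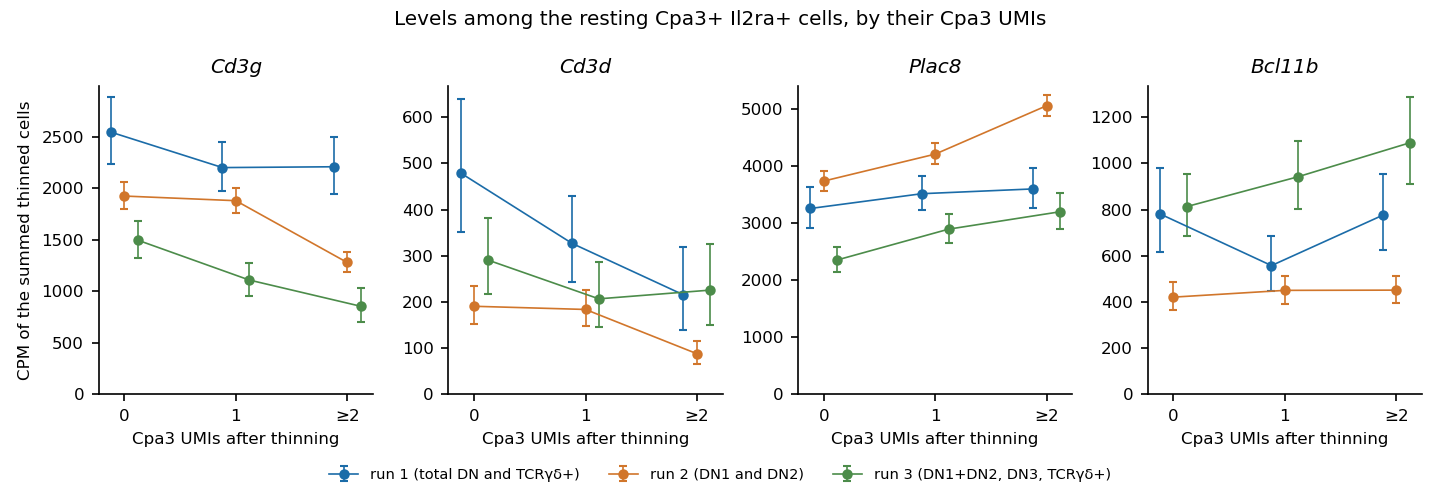
Level in CPM of Cd3g, Cd3d, Plac8 and Bcl11b in resting Cpa3+ Il2ra+ cells with 0, 1 and at least 2 Cpa3 UMIs after thinning to 2000 UMIs, by run. In runs 2 and 3 Plac8 is higher and Cd3g lower in the cells with most Cpa3 than in those with 0, and in run 1 the intervals overlap.

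A second comparison set the resting cells against 1477 cells that met the other clauses but carried a UMI of Mki67 or Top2a (151, 703 and 623 cells), and asks what accompanies cycling at this stage. In the same fit, 2253 of 10106 genes passed (22.3%), 1052 higher (10.4%) and 1201 lower (11.9%) in the resting cells. Higher genes made up 46.7% of the calls by edgeR and 29.6% of 1428 calls by DESeq2. Genes of the cell cycle follow from the gate, which used 2 of them, and are given as a description. The cyclin-dependent kinase Cdk1 was at 18.4, 11.4 and 5.28 CPM in resting and 203, 192 and 80.5 CPM in cycling cells. All 20 mitosis genes were lower, with a median of −3.67, as were 17 of 20 S phase genes (median −1.20), against a median of 0.07 over all genes. The cycling cells were deeper, with a median of 6055, 8831 and 15114 UMIs. After thinning of all cells to 2000 UMIs the count of called genes was 386 of 5562 tested, 92 higher and 294 lower.

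Lists outside the cell cycle were lower in part. Of 11 Myc and nucleolar growth genes, 7 were lower and 1 higher (median −0.30), of 16 genes of the mitochondrial respiratory chain 8 were lower and 1 higher (−0.21), and of 15 glycolysis genes 6 were lower and 1 higher (−0.22). Ezh2, the Polycomb methyltransferase, was at 123, 123 and 148 CPM against 279, 247 and 355 CPM, without overlap (−1.17 ± 0.09, adjusted p = 1.39e-14). Of 13 Polycomb and DNA methylation genes, Ezh2, Dnmt1 (−1.16), Suz12 (−0.70) and Eed (−0.48) were lower and none was higher, with 6 positive and 7 negative values and a median of −0.08. After thinning, the nucleolar gene Fbl and the polyamine enzyme Odc1, both called lower, had differences of 0.049 and 0.0928.

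The largest differences toward higher levels in the resting cells included the following genes. Ltb, a cytokine of lymphoid cells, was at 172, 137 and 204 CPM against 68.3, 64.5 and 85.3 CPM, with no overlap (1.16 ± 0.10, adjusted p = 6.51e-13). The chemokine receptor Ccr9, which draws progenitors to the thymus, was at 84.8, 43.4 and 230 CPM against 17.9, 16.4 and 51.2 CPM and was higher in each run although the ranges overlapped (1.85 ± 0.28, adjusted p = 0.00248). A few resting cells carried much of this: 9 cells held 56.7% of the Ccr9 UMIs in run 1, and 12 cells held 44.8% in run 3. Tcp11l2 was at 52.3, 44.8 and 26.4 CPM against 5.25, 9.78 and 7.57 CPM (2.04 ± 0.23, adjusted p = 2.67e-07), again without overlap.

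Of the 10 T lineage commitment factors, 8 were higher and none was lower (median 0.34), by small margins: Bcl11b by 0.33, Tcf7 by 0.34, Gata3 by 0.47 and Lef1 by 0.80. Of 12 cytokine and growth factor receptors 7 were higher and none lower (median 0.41), and of 13 CD3 and proximal signalling genes 6 were higher and none lower (0.38). After thinning, the difference of Zap70 was −0.0259, a change of sign. Of 12 Notch receptors and targets 4 were higher, the targets Hes1 (0.60) and Dtx1 (1.02) and the coactivators Maml2 (0.74) and Maml3 (0.50), and the target Nrarp was lower (−0.73, adjusted p = 0.0459), though not in run 1. Bcl2, which protects from cell death, was higher by 0.52 ± 0.10 (adjusted p = 0.00058), and of 10 survival and death genes 3 were higher and none lower. The adjusted p was 0.054 for Bcl2 without run 3, 0.0855 for Bcl11b and 0.109 for Dtx1 without run 1, and 0.141 for Tcf7 without run 2. The D-type cyclin Ccnd2 was higher (0.65) while Ccnd3 (−0.45) and the E-type cyclins Ccne1 (−1.96) and Ccne2 (−1.97) were lower.

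The third comparison took resting cells with Cd34, a surface protein of early progenitors, and without Il2ra, Rag1, Rag2, Ptcra or Trac, and asks what separates resting Cpa3+ Il2ra+ cells from an earlier stage. There were 70 such cells in run 2, 24 in run 3 and 0 among the 5516 cells of run 1, which allows a share of up to 0.0544% (a floor of 3 counts). This limits the cells in which these UMIs were captured, not the progenitors present. The values therefore come from runs 2 and 3. Where either of these is left out below, the Cd34+ cells are 1 library, which is assumed to vary as the other populations do. In the same fit 886 genes passed (8.77%), 434 higher (4.29%) and 452 lower (4.47%) in the resting Cpa3+ Il2ra+ cells. Higher genes made up 49.0% of the calls by edgeR and 35.6% by DESeq2. The count fell to 546 without run 3, 392 without cells carrying Sox13, Etv5 or Blk, 280 after thinning and 140 without the run as a block. Of 98 called genes considered, 33 were no longer called without the Sox13, Etv5 or Blk cells. Leaving these out also removed Cd34+ cells: of the 24 in run 3, 16.7% had a Blk UMI, 12.5% a Sox13 UMI and 8.33% an Etv5 UMI. A sum needed at least 20 cells. How far the loss of Cd34+ cells lowered the count was not tested. The genes named below had the same direction in both runs.

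Stem and progenitor factors were lower. Spi1, which encodes the myeloid and early progenitor factor PU.1, was at 23.4 and 26.0 CPM in the resting Cpa3+ Il2ra+ cells of runs 2 and 3 and at 163 and 278 CPM in the Cd34+ cells. The populations were far apart in both runs (−3.09 ± 0.23, adjusted p = 9.93e-13). Of 14 such factors 11 were lower and 1 higher, with a median of −2.33 beside 0.06 over all genes. The lower ones included Lmo2 (−4.63), Hoxa9 (−3.73), Mef2c (−3.50), Bcl11a (−2.81), Hhex (−2.73) and Lyl1 (−1.93), and the higher one was Myb (0.92). In this comparison Hoxa7 changed sign after thinning (0.712), and Mycn did so without run 2 (0.0131).

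Of 6 myeloid genes 3 were lower and none was higher (median −2.25), and of 12 cytokine and growth factor receptors 3 were lower and 2 higher (median −0.35). Tyrobp, an adaptor of myeloid and natural killer receptors, was at 24.1 and 58.5 CPM against 504 and 1112 CPM (−4.38 ± 0.30, adjusted p = 1.14e-05). The granule enzyme Mpo was at 4.41 and 8.36 CPM against 224 and 270 CPM (−5.37 ± 0.32, adjusted p = 3.78e-12). Kit was at 30.6 and 62.5 CPM against 107 and 94.0 CPM (−1.27 ± 0.26, adjusted p = 0.000713). All 3 were lower in both runs, the myeloid genes by far more than Kit, whose adjusted p without run 2 was 0.483. Flt3, the receptor of a cytokine that sustains early progenitors, had 0 and 2 UMIs against 9 and 14 UMIs in far fewer cells. Csf2rb was at 0 in both runs and, against a floor of 3 UMIs over the resting Cpa3+ Il2ra+ cells, at least 30.3-fold lower.

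Of the 10 T lineage commitment factors 5 were higher and 1 lower (median 0.90). Bcl11b was at 426 and 842 CPM against 94.0 and 73.6 CPM (2.71 ± 0.17, adjusted p = 3.49e-13). Il7r, the interleukin 7 receptor on which early thymocytes depend, was at 83.3 and 251 CPM against 37.6 and 36.8 CPM (1.91 ± 0.24, adjusted p = 1.44e-07). Neither gene overlapped between the populations. Gata3 (1.42), Ets1 (1.38), Tcf7 (1.02) and Runx1 (0.78) were also higher, and Tox (−0.71) was lower, out of 10 commitment factors, with an adjusted p of 0.358 for Runx1 without run 3 and 0.271 for Tox without run 2. Of 13 CD3 and proximal signalling genes 7 were higher and none lower (median 1.25), among them Themis (3.48), Cd3g (2.81), Cd3e (2.37) and Lat (1.99), and the median of the list lay above that of all genes. The adjusted p of Cd3g was 0.0747 without run 1 and 0.106 without run 3, and that of Cd3e was 0.0734 without run 3.

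Among surface genes used for sorting, Thy1 was at 692 and 314 CPM against 150 and 49.0 CPM (2.28 ± 0.14, adjusted p = 5.19e-16), and Cd44 at 12.3 and 24.2 CPM against 73.1 and 106 CPM (−2.45 ± 0.30, adjusted p = 6.15e-08). Both pairs were apart in each run, in opposite directions. Of 16 sorting and surface genes tested, 3 were higher and 5 lower. Of 12 Notch receptors and targets 2 were higher and 1 lower, and of 10 survival and death genes 1 was higher and 1 lower. Notch3 was higher (2.82), at 14.4 and 27.3 CPM in the resting Cpa3+ Il2ra+ cells of runs 2 and 3, and Notch2 was lower (−1.40). In the Cd34+ cells Notch3 had 1 UMI in each of these runs, below the floor of 3 UMIs. Bcl2 was higher (1.94). Without run 3 the adjusted p of these was 0.0864 for Notch3, 0.1 for Notch2 and 0.0788 for Bcl2. Immediate early genes, which respond to stimulation and to handling of cells, were lower in 10 of 12 cases and higher in none (median −1.40). The same list had 6 of 12 higher and none lower against cycling cells (median 0.45), and against Rag or Ptcra carrying cells all 12 differences were positive with none called (median 0.38).

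**Figure D4:**
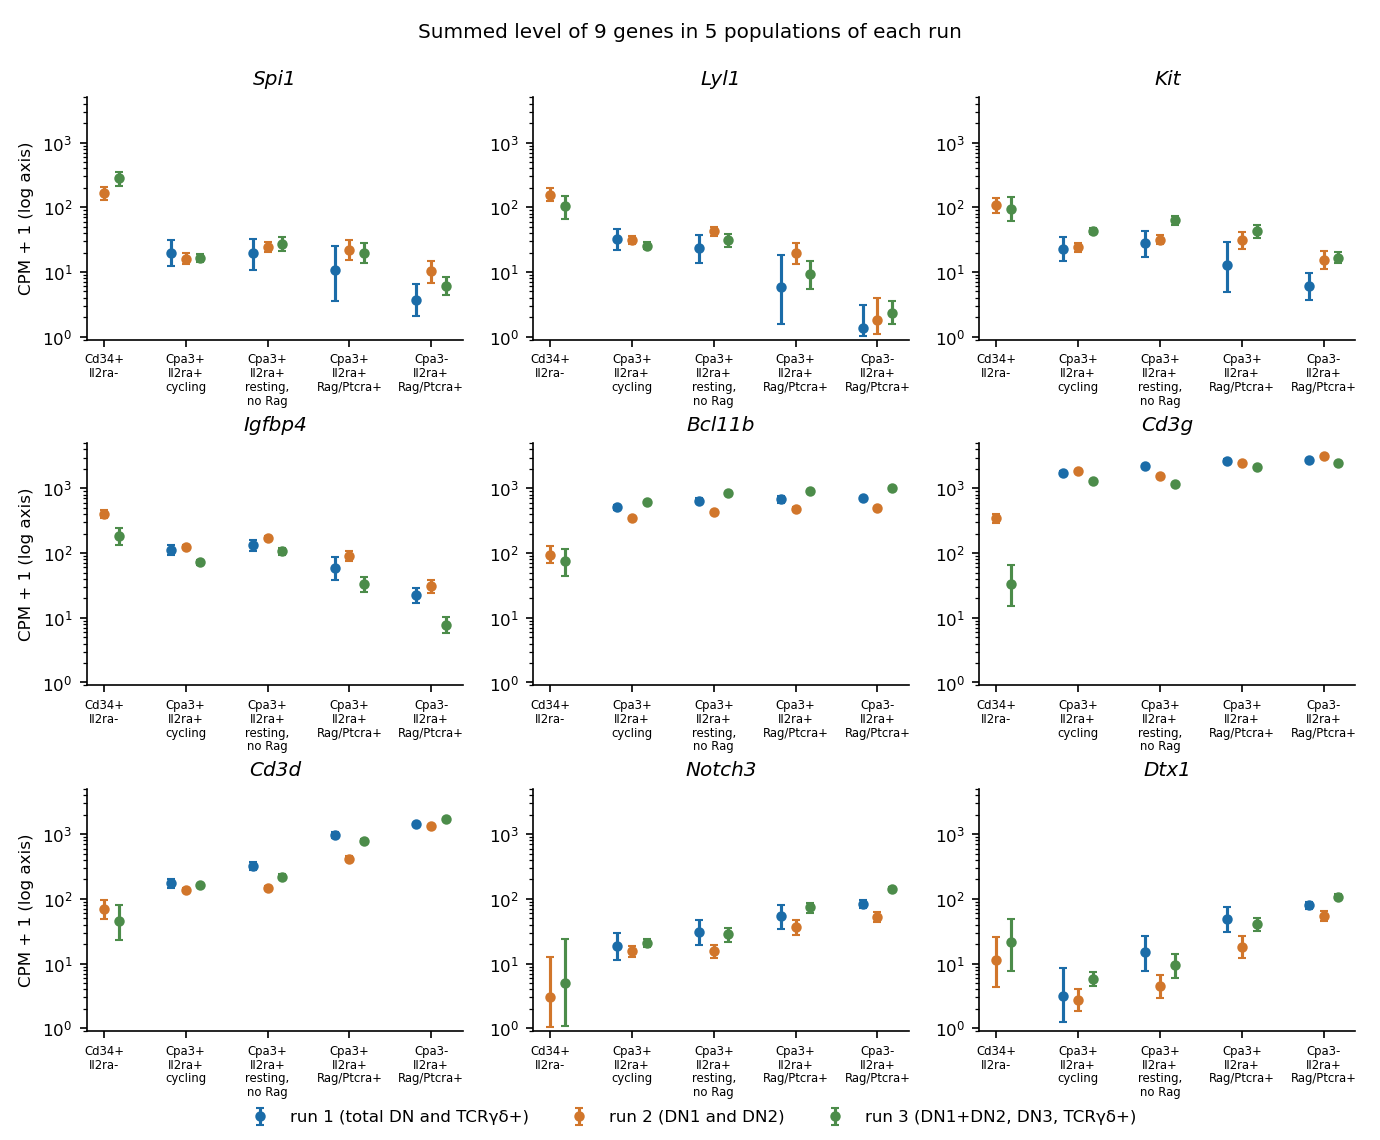
Level of 9 genes, in CPM plus 1 on a log axis with 95% Poisson intervals of the counts, in Cd34+ cells, resting Cpa3+ Il2ra+ cells, those with Rag or Ptcra, cycling cells and CD25+ cells without Cpa3, by run. Spi1 is highest in Cd34+ cells, while Bcl11b stands at 426 to 842 CPM in resting Cpa3+ Il2ra+ cells against 94.0 and 73.6 CPM in Cd34+ cells.

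**Figure D5:**
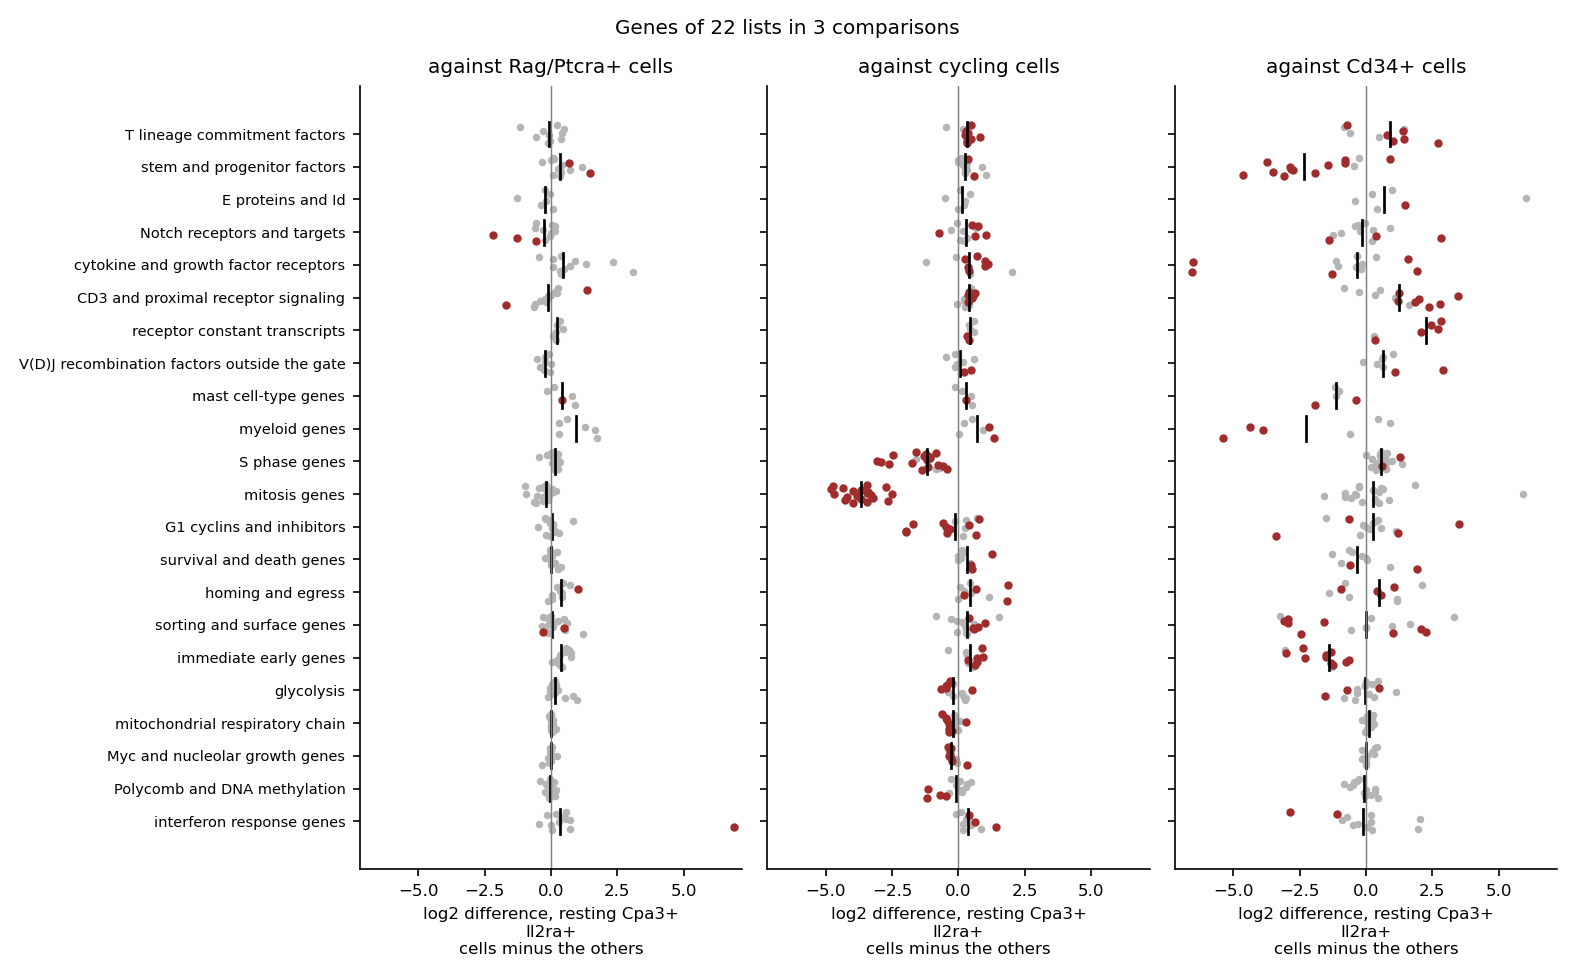
Log2 difference of each tested gene of the 22 lists between resting Cpa3+ Il2ra+ cells and the 3 populations compared, with called genes in red and the median of each list as a black line. Mitosis genes are lower than in cycling cells (median −3.67), and stem and progenitor factors are lower than in Cd34+ cells (median −2.33).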

How the data were processed

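Reads of each droplet library were aligned to mm10 by the authors, who used Cell Ranger, and the deposited matrix of each run holds raw UMI counts. Per the labels, later steps used R 3.6.3 and Seurat 2.3. The cells, the comparison populations and the gene lists were chosen with earlier results of these data known. Cells were kept at 500 to 5000 genes and at most 7% mitochondrial counts, which left 5516 of 5527, 8852 of 8887 and 7511 of 8869 barcodes. Doublets stayed in, and leaving out those with high Scrublet scores was an alternative. Runs 1 and 2 shared 72 cell barcodes, runs 1 and 3 shared 3, and runs 2 and 3 shared 0. The runs held 39947415, 52797915 and 98533329 UMIs. CPM values use the 27734 genes common to all runs. Counts were summed over cells per population and run (at least 20 cells) and tested with edgeR 4.0.16 in R 4.3.3 (TMM scaling, filterByExpr, robust quasi-likelihood fit, Benjamini-Hochberg adjustment), without the 9 gate genes. DESeq2 1.42.0, other gates, thinning and leaving out a run were alternatives. In data simulated for the comparison with Rag or Ptcra carrying cells (9722 genes), 91 of 100 genes changed 2-fold and 40 of 100 changed 1.4-fold were called, with 9 false among 140 calls. For the comparison with Cd34+ cells, 58 and 15 of 100 were called, with 6 false among 79 calls. The simulated counts had a common spread for all genes (dispersion 0.004852) and no difference between runs. No cells were chosen by counts in them, and only genes above 20 CPM were changed. These rates therefore need not hold in the real comparisons. Named genes are gate genes, the most abundant and the called genes of the lists, the 10 largest called changes in each direction with the same direction in every run and at least 20 CPM, and, against the other cells, the 10 largest in each direction. Scin, Tcrg-C1 and Gm5111 among the 13 higher genes, and Cd2, were named after their values were seen. Gene positions are those of GENCODE vM21 on GRCm38. A γδ T cell marker is not reported here and was left out of its list.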

Additional observations from a re-analysis of the deposited data

Results flagged for a closer look

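A set of 7 genes that passed in the comparison of resting with cycling Cpa3+ Il2ra+ cells went one way in run 1 and the opposite way in runs 2 and 3. The difference between runs was not tested, since each run is 1 library. The log2 differences of runs 1, 2 and 3 were 0.288, −0.478 and −0.68 for Cdkn1a, an inhibitor of the cell cycle, and −0.47, 0.399 and 0.483 for Cdkn1b, another such inhibitor. For Fosb, an immediate early factor, they were −1.37, 0.935 and 0.502, and for the cytokine receptor Il18r1 they were −1.04, 0.684 and 1.23. The Notch target Nrarp stood at 0.757, −0.605 and −0.958, the nucleolar gene Nop56 at 0.0513, −0.302 and −0.526, and Spi1 at −0.0391, 0.598 and 0.712. Run 1 held the fewest of the cells compared, 184 resting and 151 cycling. In it Nrarp rested on 3 and 2 UMIs.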

How the results depend on the processing

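Counts of called genes moved with the settings. Against Rag or Ptcra carrying cells 122 genes were called, 203 without a filter on low counts, 240 with only these populations in the fit, 12 at 2 UMIs of Il2ra and Cpa3 or more, 55 in cells with at least 4000 UMIs, 44 after thinning and 59 to 164 when a run was left out (64 without run 1, 164 without run 2, 59 without run 3). Against cycling cells 2253 became 1428 with DESeq2, 1201 at 2 UMIs, 1375 at 4000 UMIs, 386 after thinning and 1457 to 1865 without a run. Against Cd34+ cells 886 became 587 with only these populations, 280 after thinning, 392 without cells carrying Sox13, Etv5 or Blk (an alternative chosen after seeing the data) and 546 to 764 without a run, 546 being without run 3. Without the run as a replicate block, the counts were 0 (156 at an unadjusted p under 0.05), 121 and 140. The block pairs populations of the same library. The 135 genes apart from the other cells became 69 after thinning, 35 at 50 CPM or more and 170 to 244 without a run, and the 13 higher ones among them became 29, 5 and 14 to 53. The share of cells in the gate moved from 3.34% to 1.02% at 2 UMIs, 1.71% at 4000 UMIs and 2.54% after thinning in run 1, from 8.45% to 3.85%, 11.9% and 5.92% in run 2, and from 3.20% to 2.02% at 2 UMIs in run 3. After thinning, Fbl (0.049), Odc1 (0.0928) and Zap70 (−0.0259) against cycling cells and Hoxa7 (0.712) against Cd34+ cells changed sign, as did Mycn against Cd34+ cells without run 2 (0.0131, against −1.65 without run 3). The causes were not tested. Of 27 called genes considered against Rag or Ptcra carrying cells, 21 stayed called with DESeq2, 11 without run 3, 5 after thinning and 2 at 2 UMIs, with none reversed in any setting. Leaving out high Scrublet scores or B cell markers kept each count within 1.5 times. The depth limits what a gate on 0 UMIs can separate. The 24 Cd34+ cells in run 3 limit the comparison with them, also where cells carrying Sox13, Etv5 or Blk are left out.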

Other observations

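Within the resting Cpa3+ Il2ra+ cells, some immediate early genes, named after their values were seen, were lowest in run 1. Fos was at 29.7, 677 and 301 CPM in runs 1, 2 and 3, and Jun at 188, 703 and 772 CPM. Dusp1, a phosphatase of the same early response, was at 12.7, 219 and 120 CPM, while Egr2, of the same list, was at 1.41, 1.63 and 0 CPM. Each run is 1 library and 1 sort, so these differences have no replicate check.

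A few cells carried most of the counts of some genes. In run 3, 12 of the 240 resting Cpa3+ Il2ra+ cells held 64.3% of the UMIs of Gzma, 90.2% of those of the chemokine Ccl5 and 90.1% of those of the invariant chain Cd74, of which 1 cell held 143 of 172. In run 1, 9 of 184 cells held 73.7% of the UMIs of the cyclin Ccnb2 and 77.8% of those of the centromere gene Cenpa. Whether these cells were cycling was not tested. The globin gene Hbb-bt, which shares sequence with Hbb-bs, had 440 UMIs in run 2 and 716 in run 3, and 0 in run 1. In run 2, 13 cells with at least 10 Hbb-bt UMIs held 0 UMIs of other globin genes, and in run 3, 9 such cells held 1. The highest single cells had 97 and 133 Hbb-bt UMIs.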
